A study of Mus musculus with 8 samples.

Results

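The genes described here are *Trp53*, which encodes the p53 transcription factor, and 9 genes of its cell cycle arrest and feedback circuit: *Cdkn1a*, *Mdm2*, *Mdm4*, *Ccng1*, *Ppm1d*, *Btg2*, *Trp53inp1*, *Sesn2* and *Plk2*. They were chosen by gene symbol in the annotation of the array. Of the 10 symbols, 9 had at least 1 probe set (a group of short probes that reads one transcript) naming only that gene, with 22 probe sets in all, out of 18193 genes measured. *Trp53* itself was not analysed here. In GRCm38.p6 the measured genes lie on chromosomes 17 (*Cdkn1a*), 10 (*Mdm2*), 1 (*Mdm4* and *Btg2*), 11 (*Ccng1* and *Ppm1d*), 4 (*Trp53inp1* and *Sesn2*) and 13 (*Plk2*). Each gene is represented by its probe set with the highest mean over the 8 arrays, and the other probe sets are given after it.

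RNA was measured in CD8+CD44+CD62L- T cells, the antigen-experienced CD8+ T cells, sorted from mice with subcutaneous tumors of MC38, a colon adenocarcinoma line of C57BL/6 origin. There were 4 groups of 2 arrays: tumor IR (T cells from tumors 5 h after 5 Gy of ionizing radiation to the whole body), tumor no IR (the same cells from tumors of mice without IR), LN IR (lymph node T cells 5 h after 5 Gy) and LN no IR (lymph node T cells without IR). All mice were female C57BL/6, 6 to 8 weeks old, and each array holds cells pooled from 4 mice. Tumors were digested with enzymes and passed over Percoll, whereas LN were disrupted mechanically, so tissue and dissociation cannot be told apart.

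p53 is held low in undamaged cells by Mdm2, a ubiquitin ligase that marks it for degradation, with help from its relative Mdm4. After DNA breaks, the ATM kinase and its partners release p53 from this hold, and p53 then induces 2 sets of genes that are covered here. One set stops the cell cycle, led by *Cdkn1a* (p21, an inhibitor of cyclin-dependent kinases), and the other feeds back on p53, led by *Mdm2* itself and by *Ppm1d* (the phosphatase Wip1, which removes the damage-induced phosphates). Lymphocytes are known for a strong p53 response to radiation.

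p53 binds as a tetramer to a pair of 10-base half-sites, and the sequence upstream of each start site was searched for such half-sites on both strands. Promoters (250 bases before and 50 after the start) of 8 of the 9 measured genes were matched in RefSeq annotation of GRCm38.p6, 10 windows in all, and *Trp53inp1* had no entry. A half-site stood in a window of 4 genes, *Cdkn1a*, *Mdm2*, *Ccng1* and *Ppm1d*. The motif is held by 8.36% of 32851 promoter windows of the same length. These 4 upstream sequences are shown because they hold the motif of the factor whose circuit is described. Each runs 5′ to 3′ on the strand of its gene up to the base before the start site, with the half-sites in capitals:
Cdkn1a (chr17:29090729-29090978, plus strand): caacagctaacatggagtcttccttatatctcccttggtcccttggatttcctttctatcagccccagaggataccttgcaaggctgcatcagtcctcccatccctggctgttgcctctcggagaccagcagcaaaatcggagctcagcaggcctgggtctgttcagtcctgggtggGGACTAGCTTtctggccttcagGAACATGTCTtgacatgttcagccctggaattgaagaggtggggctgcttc
Mdm2 (chr10:117710759-117711008, minus strand): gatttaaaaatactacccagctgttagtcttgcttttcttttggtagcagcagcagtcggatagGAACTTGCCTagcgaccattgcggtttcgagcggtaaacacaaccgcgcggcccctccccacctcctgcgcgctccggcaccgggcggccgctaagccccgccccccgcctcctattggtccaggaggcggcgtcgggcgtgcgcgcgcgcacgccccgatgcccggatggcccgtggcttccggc
Ccng1 (chr11:40755287-40755536, minus strand): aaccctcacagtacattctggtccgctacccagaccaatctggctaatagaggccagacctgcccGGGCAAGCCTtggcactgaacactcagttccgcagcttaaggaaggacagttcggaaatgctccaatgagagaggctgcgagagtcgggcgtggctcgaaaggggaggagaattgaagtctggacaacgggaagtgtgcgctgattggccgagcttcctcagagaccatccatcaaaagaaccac
Ppm1d (chr11:85311004-85311253, plus strand): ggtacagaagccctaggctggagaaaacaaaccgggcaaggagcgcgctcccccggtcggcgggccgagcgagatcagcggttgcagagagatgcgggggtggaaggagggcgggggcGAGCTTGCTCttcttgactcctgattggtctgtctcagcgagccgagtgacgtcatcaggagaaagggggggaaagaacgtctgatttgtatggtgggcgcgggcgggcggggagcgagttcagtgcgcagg
The *Cdkn1a* window held a pair of half-sites starting 73 and 51 bases before the start, with 12 bases between them. The 10 bases directly after the second half-site, tgacatgttc, miss the searched pattern at their first base only and were not marked. The search does not show which of these stretches p53 binds. A pair at most 13 bases apart, a search chosen after this window had been seen, occurs in 24 of the 32851 windows (0.0731%). The single half-sites began 186 bases before the start of *Mdm2*, 185 before *Ccng1* and 132 before *Ppm1d*. No half-site was found in the other *Cdkn1a* window, in either *Mdm4* window or in the windows of *Btg2*, *Sesn2* and *Plk2*, and these letters say nothing of sites elsewhere in a gene.

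Values are the deposited log2 intensities, on which a difference of 1 is a 2-fold difference, and a probe set's level cannot be set against that of another. Arrays of a group correlated at 0.992 (tumor IR), 0.993 (tumor no IR), 0.966 (LN IR) and 0.982 (LN no IR) over all genes. The mean of 17 mitotic genes was 9.59 and 9.67 in tumor IR, 9.69 and 9.81 in tumor no IR, 9.80 and 7.75 in LN IR, and 10.10 and 8.86 in LN no IR. LN IR replicate 2 was lowest, and LN no IR replicate 2 was next, below all the other arrays. The mean of 11 T cell identity genes was 11.11 to 11.74 on the 8 arrays, and *Cd8a* was 12.09 to 12.67. Macrophage and monocyte markers (17 genes) averaged 8.79 and 10.17 in tumor IR and 10.12 and 10.89 in tumor no IR, against 6.60 and 6.85 in LN IR and 6.34 and 6.77 in LN no IR. Fibroblast markers (12 genes) averaged 8.95 and 9.0, and 8.70 and 8.54, in the tumor groups, against 6.27 and 6.26, and 6.35 and 6.63, in the LN groups. In such bulk samples fewer cells of a type and less RNA per cell cannot be told apart. Hereafter rose and fell are used of genes with an adjusted p under 0.1 in limma and a log2 change of 1 or more.

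To ask how the p53 circuit responded to radiation in each tissue, IR was compared with no IR. In LN T cells 7 of the 9 genes rose, *Cdkn1a*, *Plk2*, *Sesn2*, *Mdm2*, *Ccng1*, *Ppm1d* and *Trp53inp1*, where 0.786% of all genes rose. In tumor T cells 2 of the 9 rose, *Ccng1* and *Sesn2*, where 0.0934% of all genes rose. At an unadjusted p under 0.05 by limma the same 7 genes that rose in LN T cells passed in each tissue. Of all genes 16.6% did so in tumor and 14.3% in LN T cells. When only the 4 LN arrays were fitted, 0 of the 9 passed in LN T cells by limma (7 at an unadjusted p under 0.05, against 6.88% of all genes), as did 0 of all 18193 genes, with adjusted p-values of 0.188 to 0.590 for the 7 genes. In tumor T cells 5 of the 9 passed when only the 4 tumor arrays were fitted (0.951% of all genes), and 5 by robust regression (0.973%), which gave 7 in LN T cells (2.77%). None of the 9 fell in either tissue. The median log2 change of the 9 genes was 1.26 in tumor and 1.50 in LN T cells, against 0.09 and 0.01 over all genes. Both IR arrays lay above both no IR arrays for 8 of the 9 genes in tumor T cells, all but *Btg2*, as they did for 41.4% of all genes. In LN T cells this held for the 7 genes that rose, against 21.8% of all genes. With 2 arrays a group, an exact two-sided permutation test of 1 gene cannot go below p = 0.333, and the calls rest on the variance that limma shares across genes and groups.

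**Figure D1:**
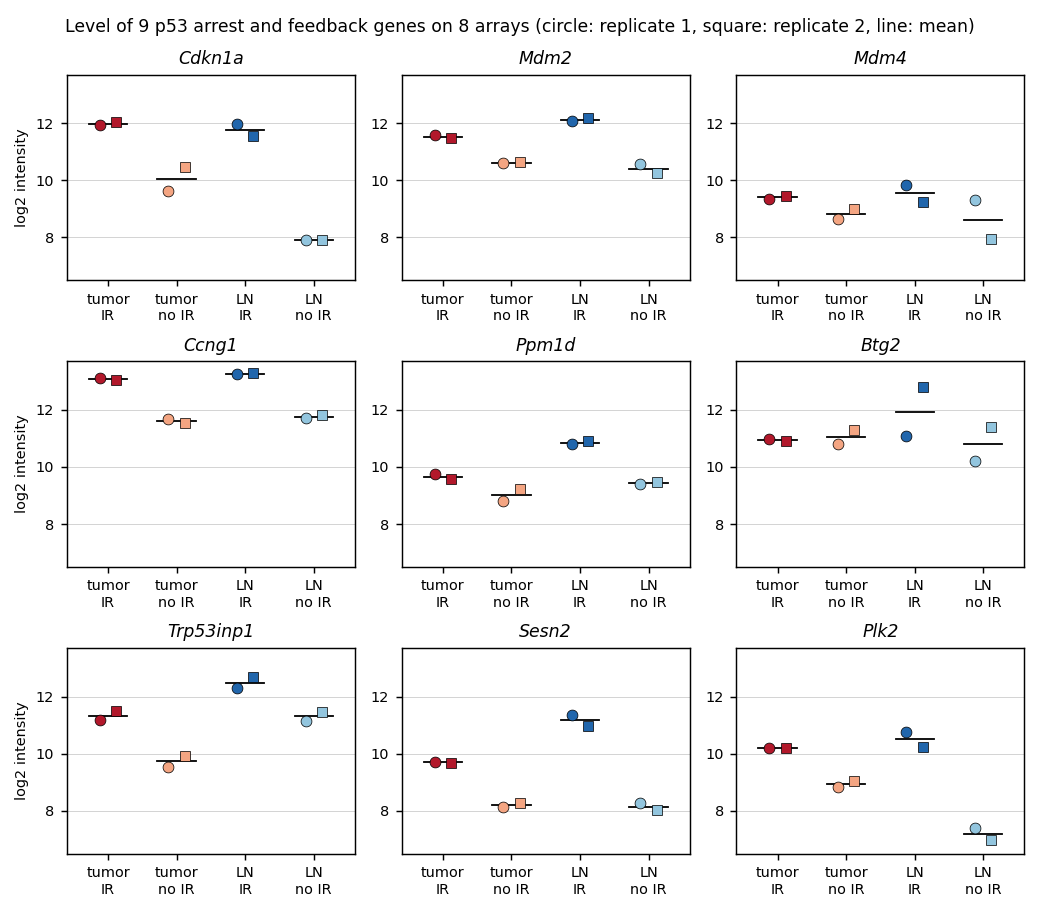
Log2 intensity (vertical axis) of the 9 measured genes in each of the 4 groups (horizontal axis), with 1 circle or square per array and a line at the mean of the 2 arrays. The IR arrays lie above the no IR arrays of the same tissue in 8 panels for tumor and 7 for LN T cells, while *Btg2* overlaps in both.

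Among the arrest genes, *Cdkn1a* was 11.93 and 12.02 in tumor IR and 9.60 and 10.45 in tumor no IR, and 11.96 and 11.54 in LN IR, against 7.91 and 7.89 in LN no IR. The irradiated arrays of both tissues overlapped, tumor T cells without IR lay below them, and LN T cells without IR lay lowest. In LN T cells *Cdkn1a* rose by 3.84 (SE 0.28, 14.4-fold, limma adjusted p = 0.00392). In tumor T cells the change was 1.95 (SE 0.28, 95% interval 1.28 to 2.61) and did not pass (adjusted p = 0.138). It passed there without either 1 of the LN IR arrays, at an adjusted p = 0.0691 each.
*Plk2*, a polo-like kinase that p53 induces and that acts in centriole duplication, was 10.21 and 10.19 in tumor IR, against 8.85 and 9.04 in tumor no IR. Its level was 10.77 and 10.26 in LN IR, against 7.40 and 6.96 in LN no IR. The order of the groups was that of *Cdkn1a* except that LN IR stood above tumor IR, and no neighbouring groups overlapped. *Plk2* rose by 3.33 in LN T cells (SE 0.23, 10.1-fold, adjusted p = 0.00301), and its change of 1.26 in tumor T cells did not pass (SE 0.23, adjusted p = 0.216, and 0.0737 without either LN IR array).
*Btg2*, an antiproliferative protein that also promotes the shortening of mRNA tails, was 10.97 and 10.90 in tumor IR, 10.81 and 11.28 in tumor no IR, 11.10 and 12.79 in LN IR, and 10.22 and 11.39 in LN no IR. On this probe set all neighbouring groups overlapped, and the LN arrays of one group differed by more than 1 unit. Its log2 change was −0.11 in tumor (95% interval −1.46 to 1.24) and 1.13 in LN T cells (−0.22 to 2.48), and neither passed. The LN value moved with 1 array, and the change was 1.98 (adjusted p = 0.0296) without LN IR replicate 1 and 0.29 (adjusted p = 0.904) without LN IR replicate 2.

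Among the genes that act back on p53, *Mdm2* was 11.60 and 11.46 in tumor IR, 10.58 and 10.65 in tumor no IR, 12.06 and 12.17 in LN IR, and 10.55 and 10.24 in LN no IR. On this probe set the 4 groups did not overlap, with LN IR highest. On 1 of the other *Mdm2* probe sets the tissues overlapped with IR (10.02 and 9.95 in tumor, 10.48 and 10.01 in LN T cells) and without it. *Mdm2* rose by 1.72 in LN T cells (SE 0.16, 3.28-fold, limma adjusted p = 0.00883), and its change of 0.91 in tumor T cells did not pass (95% interval 0.53 to 1.29, adjusted p = 0.216).
*Mdm4*, the relative that binds p53 without degrading it by itself, was 9.32 and 9.46 in tumor IR, 8.65 and 8.99 in tumor no IR, 9.82 and 9.24 in LN IR, and 9.30 and 7.93 in LN no IR. On this probe set the LN groups overlapped. Its log2 change was 0.57 in tumor (−0.43 to 1.58) and 0.92 in LN T cells (−0.09 to 1.92), and neither passed. These intervals include both no change and a change of more than 1. On each of the other *Mdm4* probe sets both IR arrays lay above both no IR arrays in both tissues. Their changes were 0.39 to 0.66 in tumor and 0.30 to 1.00 in LN T cells. Some of their 95% intervals excluded no change and others included it.
*Ppm1d* was 9.75 and 9.58 in tumor IR, 8.80 and 9.22 in tumor no IR, 10.80 and 10.90 in LN IR, and 9.41 and 9.48 in LN no IR. Its irradiated LN arrays stood more than 1 unit above all the others. It rose by 1.41 in LN T cells (SE 0.18, 2.65-fold, adjusted p = 0.0281), a call that was lost without either 1 of the LN no IR arrays (adjusted p = 0.127 without replicate 1 and 0.136 without replicate 2) or either 1 of the tumor IR arrays (0.102 each). In tumor T cells the change was 0.66 (SE 0.18, adjusted p = 0.283).
*Ccng1*, cyclin G1, which recruits a phosphatase to Mdm2, was 13.13 and 13.06 in tumor IR, against 11.69 and 11.53 in tumor no IR, and 13.24 and 13.28 in LN IR, against 11.73 and 11.81 in LN no IR. The levels differed little between the tissues and clearly with IR. *Ccng1* rose by 1.49 in tumor (SE 0.14, 2.80-fold, adjusted p = 0.0301) and by 1.50 in LN T cells (SE 0.14, 2.82-fold, adjusted p = 0.00828).

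*Trp53inp1*, a stress protein that helps p53 to be phosphorylated, was 11.18 and 11.49 in tumor IR, 9.55 and 9.92 in tumor no IR, 12.30 and 12.68 in LN IR, and 11.16 and 11.46 in LN no IR. Irradiated tumor T cells overlapped with LN T cells that had not been irradiated. *Trp53inp1* rose by 1.18 in LN T cells (SE 0.22, 2.26-fold, limma adjusted p = 0.0894). The call was lost without any 1 of the arrays other than LN IR replicate 1, at adjusted p-values of 0.157 (without LN IR replicate 2), 0.203 (either tumor IR array), 0.204 (either tumor no IR array), 0.265 (LN no IR replicate 1) and 0.219 (LN no IR replicate 2). The change in tumor T cells was 1.60 (SE 0.22, 3.03-fold) and did not pass (adjusted p = 0.126, and 0.056 without either LN IR array).
*Sesn2*, sestrin 2, which restrains the growth kinase mTORC1 under stress, was 9.73 and 9.68 in tumor IR, 8.14 and 8.29 in tumor no IR, 11.36 and 10.99 in LN IR, and 8.29 and 8.02 in LN no IR. The no IR groups overlapped, and the IR groups stood apart, with LN above tumor. *Sesn2* rose by 3.02 in LN T cells (SE 0.18, 8.13-fold, adjusted p = 0.00301) and by 1.49 in tumor T cells (SE 0.18, 2.80-fold, adjusted p = 0.0976).

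The tumor calls rest on all 4 tumor arrays. Leaving out any 1 of them lost the calls over all genes as well as those of the 9, and left a group with a single array. The log2 changes of *Ccng1* and *Sesn2* were then 1.40 to 1.57 and 1.41 to 1.56. Leaving out either LN IR array kept the log2 changes in tumor T cells and altered the calls. LN arrays enter these calls through the variance that all groups share. *Sesn2* also did not pass without either LN no IR array (adjusted p = 0.157). In LN T cells the calls of the 9 genes, *Btg2* included, changed with the LN IR array left out, as did those over all genes.

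**Figure D2:**
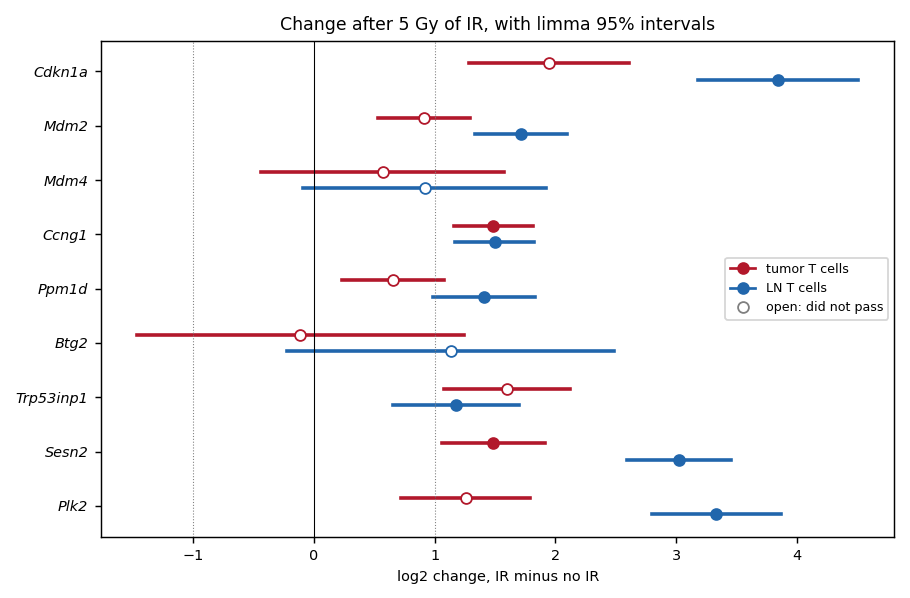
Log2 change after 5 Gy of IR (horizontal axis, IR minus no IR) of the 9 genes in tumor (red) and LN (blue) T cells, with limma's 95% intervals, and dotted lines at −1 and 1. Filled points passed the test: 2 genes in tumor and 7 in LN T cells.

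Whether the response differed between the tissues was tested as the IR change in tumor T cells minus that in LN T cells. By limma 0 of the 9 genes passed, as did 0% of all genes, and robust regression also gave 0 of the 9. At an unadjusted p under 0.05 there were 5 of the 9 (*Cdkn1a*, *Plk2*, *Sesn2*, *Mdm2* and *Ppm1d*), against 5.63% of all genes. The difference was −2.07 on the log2 scale for *Plk2* (95% interval −2.82 to −1.32, limma adjusted p = 0.431), −1.90 for *Cdkn1a* (−2.83 to −0.96, adjusted p = 0.660) and −1.54 for *Sesn2* (−2.14 to −0.93, adjusted p = 0.474). These 3 genes passed without LN IR replicate 1, at adjusted p-values of 0.0897 (*Cdkn1a*), 0.0456 (*Plk2*) and 0.05 (*Sesn2*), a setting in which 770 of all 18193 genes passed (4.23%, with 222 lower, 1.22%), and did not pass without LN IR replicate 2 (0.277, 0.123 and 0.15), the array with the low mitotic genes.
For *Mdm2* the difference was −0.80 (−1.34 to −0.27, limma adjusted p = 0.758), and for *Ppm1d* −0.75 (−1.35 to −0.16, adjusted p = 0.763). The other *Mdm2* probe sets gave −0.43 (−1.18 to 0.32) and −1.43 (−2.96 to 0.09), and the other *Ppm1d* probe set −0.83 (−1.29 to −0.37). For *Ccng1* the difference was −0.01 with an interval from −0.47 to 0.45, and for *Trp53inp1* it was 0.43 (−0.31 to 1.16). *Btg2* (−1.24, −3.15 to 0.67) and *Mdm4* (−0.34, −1.77 to 1.08) had intervals more than 2 units wide. Without IR, *Cdkn1a* and *Plk2* also had a higher level in tumor T cells, whereas the *Sesn2* arrays of the no IR groups overlapped. Over the same arrays the macrophage markers were lower after IR in tumor T cells (16 of 17, median −1.18) and not in LN T cells (5 of 17, median 0.20). In either tissue 0 of 17 were called. At an unadjusted p under 0.05 there were 10 in tumor and 0 in LN T cells, against 16.6% and 14.3% of all genes. The part of these markers in the difference was not tested.

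In tissue that had not been irradiated, tumor T cells had 2 of the 9 genes higher and 1 lower than LN T cells, where 4.5% of all genes were higher and 1.04% lower. *Cdkn1a* was 9.60 and 10.45 in tumor no IR, against 7.91 and 7.89 in LN no IR, a log2 difference of 2.12 (SE 0.28, 4.35-fold, limma adjusted p = 0.00689). *Plk2* was 8.85 and 9.04, against 7.40 and 6.96, a difference of 1.76 (SE 0.23, 3.39-fold, adjusted p = 0.00610). *Trp53inp1* was lower, at 9.55 and 9.92 in tumor no IR, against 11.16 and 11.46 in LN no IR (−1.58, SE 0.22, adjusted p = 0.00870). The same 3 genes passed under all 19 alternative settings. The circuit thus held genes that were higher and a gene that was lower in tumor T cells. The other members did not pass, with 95% intervals of −0.16 to 0.60 for *Mdm2*, −0.48 to 0.17 for *Ccng1*, −0.86 to −0.01 for *Ppm1d* and −0.36 to 0.49 for *Sesn2*, all inside the fold limit, and wider intervals for *Mdm4* (−0.80 to 1.21) and *Btg2* (−1.11 to 1.59). In this comparison 15 of 17 macrophage markers and 6 of 12 fibroblast markers were also higher in tumor, and 3 of 3 naive T cell markers were lower, as were 3 of 9 B cell markers (*Cd79b*, *Pou2af1* and *Ighm*). The 9 B cell markers averaged 6.57 and 6.46 in tumor no IR, against 7.21 and 8.32 in LN no IR. On the tumor no IR arrays the macrophage mean was 10.12 and 10.89, and *Cdkn1a* was 9.60 and 10.45. On the tumor IR arrays the macrophage mean was 8.79 and 10.17, and *Cdkn1a* was 11.93 and 12.02. The part of other cells in these differences was not tested.

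With IR, tumor T cells had 0 of the 9 genes higher and 3 lower than LN T cells, where 4.8% of all genes were higher and 2% lower. *Sesn2* was 9.73 and 9.68 in tumor IR, against 11.36 and 10.99 in LN IR (−1.47, SE 0.18, limma adjusted p = 0.00487), and it passed in all 20 alternative settings. *Ppm1d*, at 9.75 and 9.58 against 10.80 and 10.90, was lower by 1.19 on the log2 scale (adjusted p = 0.0110), and *Trp53inp1*, at 11.18 and 11.49 against 12.30 and 12.68, by 1.15 (adjusted p = 0.0255). *Trp53inp1* was lower in tumor both with and without IR. Of 9 B cell markers 4 were lower in tumor IR than in LN IR, with means of 6.31 and 6.53, against 7.70 and 8.06, and their part in these differences was not tested. With the arrays scaled to T cell identity genes the differences of *Ppm1d* and *Trp53inp1* were −0.97 and −0.94, under the fold limit. The *Ppm1d* call was lost without tumor IR replicate 2 (adjusted p = 0.107). That of *Trp53inp1* was lost without either tumor IR array or without LN IR replicate 2. *Mdm2* had an adjusted p = 0.0739 with a difference of −0.58, also under the limit. *Cdkn1a*, which had differed 4.35-fold without IR, differed by 0.23 with IR (−0.44 to 0.89, adjusted p = 0.694), and *Plk2* by −0.31 (−0.84 to 0.22, adjusted p = 0.473).

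**Figure D3:**
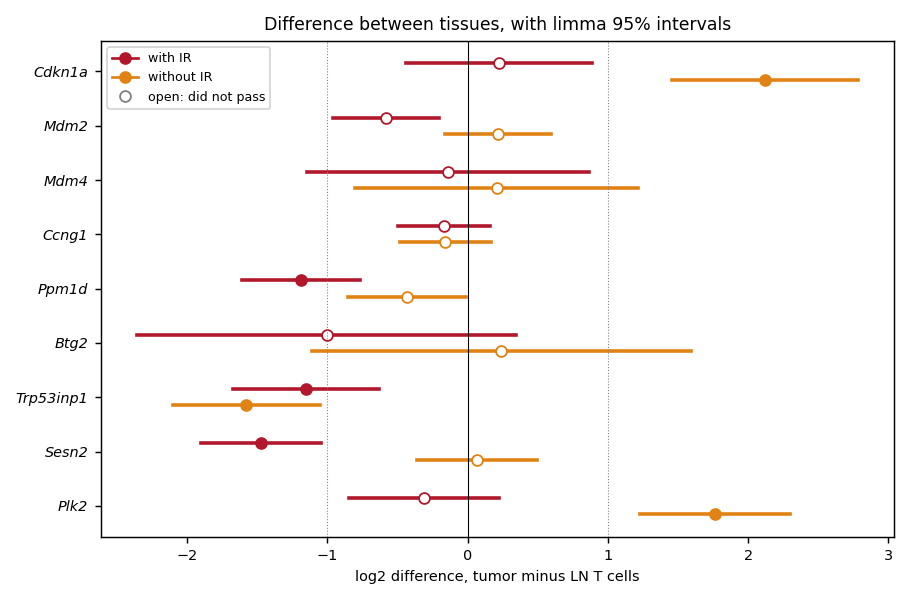
Log2 difference between tissues (horizontal axis, tumor minus LN T cells) of the 9 genes with IR (red) and without IR (orange), with limma's 95% intervals. Filled points passed: *Cdkn1a* and *Plk2* lie above 1 without IR and near 0 with it, *Sesn2* lies near 0 without IR and at −1.47 with it, and *Trp53inp1* lies below −1 in both.

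The other 13 probe sets of these genes gave the direction of the brightest one after IR, except for *Btg2* in tumor T cells (0.025, against −0.11). Those of *Ccng1* rose in both tissues (1.77 and 2.26 in tumor, 1.96 and 2.63 in LN T cells), so all 3 *Ccng1* probe sets passed in both. The other *Cdkn1a* probe set read 11.49 and 11.59 in tumor IR, 9.37 and 10.20 in tumor no IR, 11.86 and 11.49 in LN IR, and 7.23 and 7.02 in LN no IR, a change of 1.75 in tumor and 4.55 in LN T cells, of which the LN change passed. The other *Sesn2* probe set rose by 2.40 in LN T cells and changed by 1.02 in tumor T cells, where it did not pass (limma adjusted p = 0.249). The other probe sets of *Ppm1d* (1.44) and *Trp53inp1* (1.64) also rose in LN T cells. Of the other *Mdm2* probe sets, 1 rose in LN T cells (1.34, adjusted p = 0.0674), and 1 read 8.79 and 10.39 on the LN IR arrays and did not pass (2.09, adjusted p = 0.124). None of the *Mdm4* and *Btg2* probe sets passed in either tissue. The other *Btg2* probe set did not overlap in LN T cells, at 10.57 and 11.75 with IR, against 9.25 and 10.40 without. Its change there was 1.33 (95% interval 0.19 to 2.48, limma adjusted p = 0.282). The other *Plk2* probe set, at 3.47 to 4.02 on all 8 arrays, lay under their lower quartile (5.38 to 5.59) and changed by 0.14 in tumor and 0.12 in LN T cells.

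**Figure D4:**
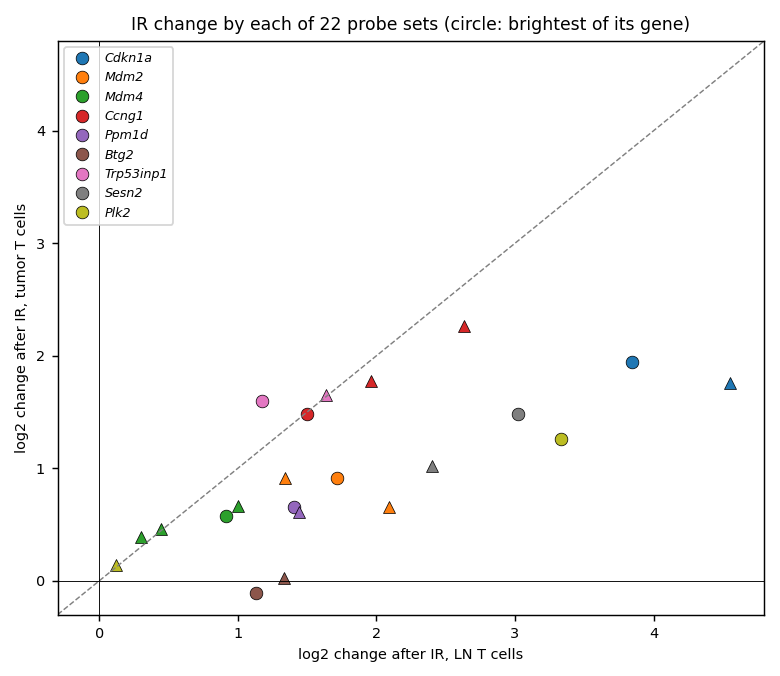
Log2 change after IR, with LN T cells on the horizontal axis and tumor T cells on the vertical, for all 22 probe sets of the 9 genes, 1 point each, with circles for the brightest probe set of a gene, triangles for the others and a dashed line of equal change. The *Cdkn1a* points (3.84 and 1.95, 4.55 and 1.75) lie far below the line, those of *Trp53inp1* lie on or above it, and the 3 *Ccng1* points lie on it or below it.

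The rest of the pathway was described with lists of genes by role. Of 14 measured p53 targets in cell death, 3 rose in tumor T cells (*Phlda3*, 2.29, which restrains the Akt kinase, *Zmat3*, 1.59, an RNA-binding protein, and *Ei24*, 1.47, a protein of the endoplasmic reticulum) and 10 rose in LN T cells, led by *Phlda3* (4.12), *Zmat3* (2.44) and *Pmaip1* (2.30, the BH3 protein Noxa). The median log2 change of the 14 was 1.14 in tumor and 1.54 in LN T cells, against 0.09 and 0.01 over all genes. At an unadjusted p under 0.05, in either direction, there were 12 of the 14 in each tissue. Of all genes 16.6% passed that limit in tumor and 14.3% in LN T cells. *Pmaip1*, called in LN T cells only, was 10.75 and 10.97 in tumor IR, against 9.20 and 9.24 in tumor no IR. The 3 tumor calls became 0 without any 1 tumor array, 9 without either LN IR array and 5 without either LN no IR array. Of 13 other p53 arrest genes and p53 ligases, 1 rose in tumor (*Psrc1*, 2.34, a spindle protein) and 2 in LN T cells (*Psrc1*, 3.54, and *Gtse1*, 1.66, which binds p53), with 0 to 2 in tumor and 1 to 3 in LN T cells when 1 array was left out. Of 9 p53 targets in repair and metabolism, 0 rose in tumor (4 passed an unadjusted p under 0.05) and 2 rose in LN T cells (*Polk*, 2.55, a translesion polymerase, and *Ddit4*, 1.19, an inhibitor of mTORC1), with 0 to 1 and 1 to 3 when 1 array was left out. By robust regression 9, 3 and 1 genes of these lists rose in tumor and 11, 3 and 4 in LN T cells. In these lists 0 genes fell, or 1 of each list in LN T cells without LN IR replicate 1. On the upstream side of the pathway, 0 of 13 kinases and cofactors that activate p53 passed by limma in either tissue. In each tissue 1 had an unadjusted p under 0.05, and robust regression called 0. The LN count was not the same without LN IR replicate 1. The medians were −0.22 in tumor and −0.41 in LN T cells. *Atm*, the kinase that senses DNA breaks, changed by −0.38 and −0.41, and *Chek2*, its partner kinase, by −0.43 and 0.12.

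Paralogs of the 9 genes were set beside them, 18 measured, and most did not pass after IR. In tumor T cells 0 of the 18 passed by limma (−0.95 to 1.26, median 0.10, and 1 by robust regression). There 5 had an unadjusted p under 0.05, against 16.6% of all genes. In LN T cells 1 rose, *Tob1*, a relative of *Btg2* (1.09, limma adjusted p = 0.0982), with 0 falling (1 by robust regression) and a median of 0.08. The *Tob1* call was lost without any 1 of the arrays other than LN IR replicate 2. LN calls among the other paralogs changed without LN IR replicate 1. *Tob1* was 9.31 and 9.86 in tumor IR, 8.21 and 8.43 in tumor no IR, 9.59 and 9.32 in LN IR, and 8.37 and 8.35 in LN no IR. The IR arrays stood above the no IR arrays in both tissues, and the tumor change of 1.26 did not pass (adjusted p = 0.216).
*Sesn1*, also known as a p53 target, was compared with *Sesn2*. It was 7.39 and 7.92 in tumor IR, 8.61 and 8.60 in tumor no IR, 8.86 and 8.74 in LN IR, and 8.74 and 9.30 in LN no IR. Its change after IR was −0.95 in tumor and −0.22 in LN T cells, neither of which passed, and after IR it was lower in tumor than in LN T cells (−1.14, adjusted p = 0.0349). *Sesn3* changed by 0.09 and 0.07 after IR. *Ccng2*, the paralog of *Ccng1*, changed by 0.05 in tumor and −0.49 in LN T cells. The p21 relatives *Cdkn1b* (p27, 0.08 and −0.16) and *Cdkn1c* (p57, 0.43 and 0.68) did not pass either. Among the polo-like kinases, *Plk1* (−0.41 and −0.68) and *Plk4* (−0.23 and −1.08), which act in mitosis and centriole duplication, did not pass, and neither did *Plk3* (−0.02 and −0.50), which was higher in tumor IR, at 8.33 and 8.32, than in LN IR, at 7.25 and 7.14 (1.13, adjusted p = 0.0198). *Btg1* (0.13 and 0.31), *Btg4*, *Tob2*, *Trp53inp2*, the phosphatases *Ppm1a*, *Ppm1b* and *Ppm1g*, and the p53 relatives *Trp63* (0.22 and 0.16) and *Trp73* (0.40 and 0.16) did not pass after IR in either tissue.

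The cell cycle genes that p21 acts on, or that fall when cells arrest, were compared 5 h after IR. Of 19 G1 cyclins, cyclin-dependent kinases and E2F and RB family genes, 0 passed in tumor (1 by robust regression). There 6 had an unadjusted p under 0.05, against 16.6% of all genes. In LN T cells 1 rose (*Rbl2*, 1.03, the pocket protein p130, limma adjusted p = 0.0865), where robust regression gave 2 that rose and 4 that fell. *Rbl2* changed about as much in tumor T cells (1.04), at 10.24 and 10.11 with IR, against 9.23 and 9.04 without, and did not pass there. The medians of the 19 genes were −0.13 in tumor and −0.59 in LN T cells. The calls in LN T cells depended on single arrays. *Cdk6*, a G1 kinase, was higher in tumor IR than in LN IR (2.08, adjusted p = 0.0282). Of 17 mitotic genes, 0 passed by limma in either tissue, and 0 had an unadjusted p under 0.05. Robust regression called 1 fall in LN T cells. The mean of these genes there was 9.80 and 7.75 with IR, and the count of falls depended on the LN IR array used. Their values were lower with IR for 11 of 17 in tumor (median −0.10) and for 17 of 17 in LN T cells (median −0.64), where the replicates were far apart: *Mki67*, a marker of cycling cells, was 11.10 and 8.21 in LN IR, against 11.89 and 7.92 in LN no IR, and 11.16 and 11.25 in tumor IR, against 11.33 and 11.50 in tumor no IR.
Immediate early genes, which respond to damage, growth signals and to the handling of tissue, were compared as well. Their list also held the heat shock genes *Hspa1a* and *Hspa1b*. Of 23 measured, 0 passed after IR in tumor (1 at an unadjusted p under 0.05, against 16.6% of all genes, and 0 by robust regression). In LN T cells 4 rose (*Fosl2*, 2.74, *Atf3*, 2.01, *Fosb*, 1.79, and *Zfp36*, 1.27). This LN count was 10 by robust regression, 11 without LN IR replicate 1, 4 without LN IR replicate 2, 3 without LN no IR replicate 1 and 1 without any 1 of the other arrays. In the absence of IR, tumor T cells had 10 of the 23 higher than LN T cells and 0 lower, where 4.5% of all genes were higher. This count changed when 1 array was left out. The largest differences were those of the heat shock genes *Hspa1a* (3.94) and *Hspa1b* (3.92), followed by *Atf3* (3.13). The mean of the list was 10.82 and 10.92 in tumor IR, 10.63 and 10.79 in tumor no IR, 10.33 and 10.29 in LN IR, and 9.62 and 9.05 in LN no IR, the order seen for *Cdkn1a* with the exception of the LN IR and tumor no IR groups. Their relation to the higher *Cdkn1a* and *Plk2* of tumor T cells was not tested.

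**Figure D5:**
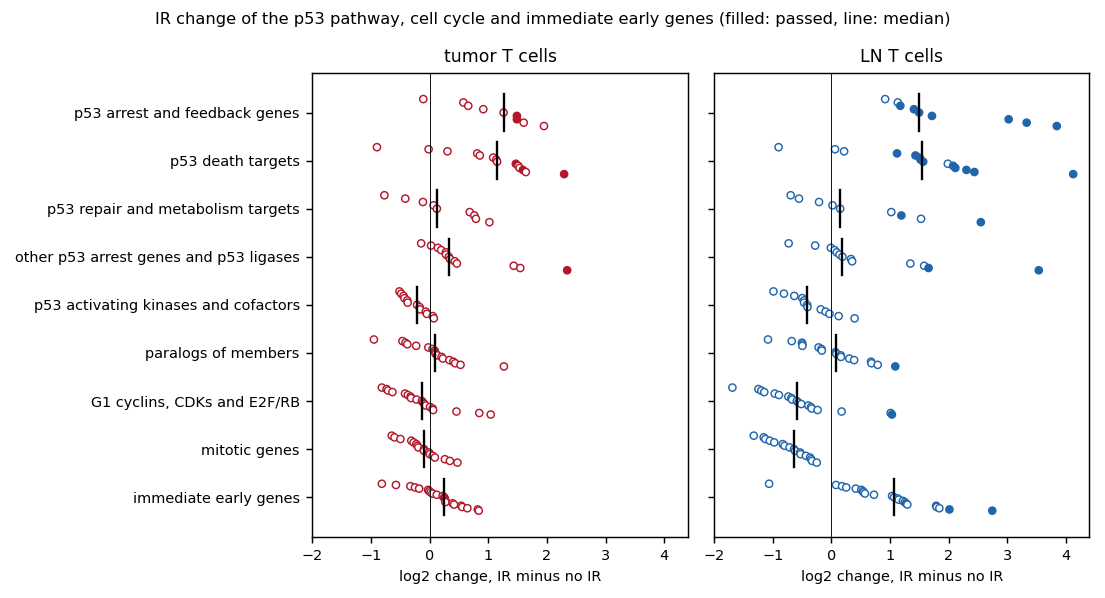
Log2 change after IR (horizontal axis, IR minus no IR) of the 9 genes and of 8 lists of pathway, paralog, cell cycle and immediate early genes, in tumor (left) and LN (right) T cells, 1 point per gene, filled where it passed, with a line at the list's median. The medians of the 9 genes (1.26 and 1.50) and of the p53 death targets (1.14 and 1.54) lie to the right of 1, and that of the 17 mitotic genes lies at −0.10 and −0.64.

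The genes with profiles nearest to 3 of the members were found over the 8 arrays, each profile centred on its own mean, by the root mean square difference on the log2 scale. Nearest to *Cdkn1a* was *Plk2* (0.425), then *Dcxr*, a xylulose reductase (0.452), and *Phlda3* (0.597). Nearest to *Mdm2* were *Rxylt1* (0.0672), an enzyme that glycosylates dystroglycan, *Tgif1* (0.142), a transcriptional repressor, and *Akr1b10* (0.170), an aldo-keto reductase. *Rxylt1* was 9.87 and 9.76 in tumor IR, 9.04 and 8.98 in tumor no IR, 10.37 and 10.42 in LN IR, and 8.84 and 8.66 in LN no IR, so its groups kept the order of *Mdm2* without overlap. Nearest to *Ccng1* were *Slc2a9* (0.167), a urate transporter, *Aen* (0.190), a nuclease that p53 induces, and *Sh3yl1* (0.190). These 8 arrays share 4 conditions, so likeness over them rests on few independent points.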

How the data were processed

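RNA of sorted T cells was measured on 8 Affymetrix arrays covering the mouse genome, 2 for each of the 4 groups. The authors processed the arrays with RMA and deposited 1 table of log2 intensities for 45101 probe sets, which were used as deposited. No RMA version is given in the sources used. Probe sets were named from the platform's annotation, and the 35877 with a gene symbol were tested. A gene's main probe set was the one with the highest mean among those naming only that gene (18193 genes).

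All 8 arrays were fitted in 4 groups with limma 3.58.1 (R 4.3.3) by least squares, with empirical Bayes moderation (4 residual and 3.13 prior degrees of freedom) and Benjamini-Hochberg adjustment over the 35877 probe sets. The thresholds, an adjusted p under 0.1 and a log2 change of at least 1, follow the study's methods, which used a robust fit (an alternative here) together with SAM (not used here). Intervals and SE are those of limma. The fit was tested on simulated data. The members and the gene lists were chosen with earlier results of these data known. Named genes were all members and their paralogs, the called genes with the 3 largest changes of each list, and the 3 nearest profiles of *Cdkn1a*, *Mdm2* and *Ccng1*. Other genes named, such as *Cd8a*, *Atm*, *Chek2* and *Mki67*, were chosen after their values were seen.

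The series' description names 2 independent experiments with cells pooled from 4 mice. The labels do not tie replicate numbers to experiments, so p-values measure the spread between these samples. Precision is limited by having 2 arrays a group. The alternatives, from other fits and scalings to leaving out each array, are described in the closing section.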

Additional observations from a re-analysis of the deposited data

How the results depend on the processing

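Of 855 recomputed results for single members, 772 kept their direction and their side of the threshold, 41 lost a call, 25 gained one and 17 changed sign. The 3 members that differed in tumor no IR against LN no IR passed in every setting run. In tumor T cells after IR, 2 members passed. This count was 5 by robust regression, from only the groups compared and with array weights, 4 with cyclic loess, 3 when scaled to T cell identity genes, 1 with a variance trend and 1 at an adjusted p under 0.05, and it ran from 0 to 5 when 1 array was left out. In LN T cells 7 passed, 0 from only the 4 arrays compared and 5 to 8 without 1 array. For the difference between the IR effects 0 passed, and 0 to 3 without 1 array. For tumor IR against LN IR 3 passed, 1 when scaled to T cell identity genes, and 1 to 4 without 1 array. Over all genes, the count called after IR was 18 in tumor and 191 in LN T cells, 177 and 504 by robust regression, 173 and 0 from only the groups compared, 90 and 1789 without LN IR replicate 1, and 0 in tumor T cells without any 1 tumor array. The scaling to T cell identity genes moved the median change of all genes after IR to 0.31 in tumor, against 0.09, and to 0.29 in LN T cells, against 0.01. The cause of these shifts was not tested.

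The sign changes concern members that did not pass. Scaled to T cell identity genes, the change of *Btg2* after IR in tumor T cells was 0.11, the difference of *Ccng1* between tumor no IR and LN no IR was 0.12, and those of *Mdm4* and *Ccng1* between tumor IR and LN IR were 0.0747 and 0.0454. With the most variable probe set, *Ccng1* differed by 0.029 between tumor no IR and LN no IR, and *Cdkn1a* by −0.14 between tumor IR and LN IR. When 1 array was left out, the change of *Btg2* after IR in tumor T cells ran from −0.35 to 0.13. The difference between the IR effects ran from −0.0927 to 0.0726 for *Ccng1* and from −1.03 to 0.34 for *Mdm4*. Tumor no IR against LN no IR ran from −0.0685 to 0.198 for *Sesn2*, from −0.35 to 0.82 for *Btg2* and from −0.48 to 0.89 for *Mdm4*, and tumor IR against LN IR from −0.43 to 0.15 for *Mdm4*.

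Samples that share a replicate number share only that number in the labels. Differences between replicates 1 and 2 correlated at 0.43 between the IR and no IR groups of each tissue and at −0.14 between tumor IR and LN IR. With the replicate number as a block, the members called were 2 in tumor (*Ccng1* and *Trp53inp1*, in place of *Sesn2*) and 7 in LN T cells after IR, 0 for the difference between the effects, 3 for tumor no IR against LN no IR, and 3 for tumor IR against LN IR, which also stayed at 3 with the numbers crossed, a setting chosen after seeing the data. The difference between the IR effects needs all 4 groups and was not fitted from fewer.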
